A study of Mus musculus with 15 samples.

Results

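The genes described here make and control cellular lipid: 40 members out of the 55421 genes counted, chosen by symbol from a list of enzymes of cholesterol and fatty acid synthesis, their SREBP control genes and the LXR genes of sterol export. All 40 symbols were found in the annotation. They were measured in donor CD4+ T cells, taken from spleen or from mesenteric lymph nodes (mLN), of Rag KO mice (Rag2-/-) with transfer colitis, a model in which naive donor T cells expand in a lymphopenic host and inflame the gut. Donor mice (C57BL/6) had loxP sites in Prkaa1, which encodes the catalytic subunit AMPKα1, and either lacked Cre (WT, PRKAA1fl/fl) or carried it under CD4 control (KO, CD4-Cre PRKAA1fl/fl), so that every group was floxed and recombination began in developing thymocytes. Cells were collected 6 weeks after transfer from 4 WT and 4 KO spleen samples, and from 3 WT and 4 KO mLN samples, since the study left out 1 WT mLN sample on quality grounds. The comparisons ask whether loss of AMPKα1 altered these transcripts in either organ, and how the organs differed within a genotype. Samples of a group came from different mice of a single experiment, and the labels do not say whether a spleen and an mLN sample with the same number share a mouse.

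Cholesterol synthesis starts from acetyl-CoA, runs through mevalonate and farnesyl diphosphate to squalene, and ends in a long series of ring modifications. Fatty acid synthesis uses the same acetyl-CoA, which acetyl-CoA carboxylase turns into malonyl-CoA for fatty acid synthase, after which desaturases and elongases modify the chain. The membrane-bound factors SREBP1 and SREBP2 drive both routes: SCAP carries them to the Golgi for cleavage when sterol is low, and the INSIG proteins hold SCAP back when sterol is high. LXR answers to oxysterols in the opposite sense and turns on sterol export. Activated T cells draw on this program to build membrane. AMPK is best known here as a protein kinase that phosphorylates and inhibits acetyl-CoA carboxylase, which a count of mRNA cannot show.

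The upstream sequence of 4 members is shown to let the control elements be read next to the values that follow. Srebf2 and Fasn had the clearest organ differences among the members, Elovl6 differed in the opposite direction, and Hmgcs1 was the member with a match to the sterol response element. The sequences are RefSeq windows on GRCm38.p6 from 250 bases before to 50 bases after the annotated start, written along the gene's strand. Capitals mark TCACNCCAC (written here as an SRE-like motif) and CCAAT, the NF-Y box, each on either strand, so that ATTGG is a CCAAT read backwards.
Srebf2, chr15:82147019-82147318, + strand: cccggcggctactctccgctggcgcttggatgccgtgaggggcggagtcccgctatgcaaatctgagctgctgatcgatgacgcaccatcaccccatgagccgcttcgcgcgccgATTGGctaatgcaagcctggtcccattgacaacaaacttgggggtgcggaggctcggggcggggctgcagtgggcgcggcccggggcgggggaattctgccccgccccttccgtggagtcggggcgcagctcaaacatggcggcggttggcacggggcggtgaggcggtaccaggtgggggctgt
Fasn, chr11:120824498-120824797, - strand: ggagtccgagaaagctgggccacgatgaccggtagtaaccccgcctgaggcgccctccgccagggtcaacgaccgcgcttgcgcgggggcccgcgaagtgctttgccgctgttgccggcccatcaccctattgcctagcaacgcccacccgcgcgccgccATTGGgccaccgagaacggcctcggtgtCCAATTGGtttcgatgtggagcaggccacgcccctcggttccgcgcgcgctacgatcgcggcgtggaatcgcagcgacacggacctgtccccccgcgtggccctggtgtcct
Elovl6, chr3:129532136-129532435, + strand: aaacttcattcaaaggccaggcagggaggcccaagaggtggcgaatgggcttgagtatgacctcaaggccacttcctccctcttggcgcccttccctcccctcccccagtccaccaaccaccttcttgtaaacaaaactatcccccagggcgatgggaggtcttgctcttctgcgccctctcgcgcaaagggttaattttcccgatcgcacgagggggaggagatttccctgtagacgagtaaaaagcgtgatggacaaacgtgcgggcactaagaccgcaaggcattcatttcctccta
Hmgcs1, chr13:119690101-119690400, + strand: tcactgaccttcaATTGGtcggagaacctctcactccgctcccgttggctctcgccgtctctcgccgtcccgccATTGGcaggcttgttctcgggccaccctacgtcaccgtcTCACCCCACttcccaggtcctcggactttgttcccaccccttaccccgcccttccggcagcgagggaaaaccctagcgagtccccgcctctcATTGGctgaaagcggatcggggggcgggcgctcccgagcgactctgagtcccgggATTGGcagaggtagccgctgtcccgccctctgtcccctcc

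Windows were found for 32 of the 40 members, and none was used for Abcg1, Fads1, Fdft1, Fdps, Scd1, Scd2, Sqle and Stard4. The SRE-like motif was in 1 of the 32, Hmgcs1, beside 1.44% of all 27025 genes with a window. The NF-Y box was in 25 of the 32 (78.1%), beside 41.1% of all genes and 42.8% of the 9678 other genes with a window that were expressed enough to be tested in spleen. The Sp1 box GGGCGG was also in 25 of the 32, beside 38.2% of all genes and 66.3% of the tested ones. The E box CACGTG was in 7 of the 32, beside 8.09% and 11.5%. Of the windows printed above, Hmgcs1 held 4 NF-Y boxes, Fasn 3 (of which a pair overlap in ccaattgg), Srebf2 1 and Elovl6 none. These matches are letters in a window and were not tested as binding sites.

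The libraries were alike in depth. Reads counted on genes ranged from 9363940 to 11283439 per sample, and the members took 0.221% to 0.258% of them. Of the uniquely aligned reads, 58.4% to 63.4% lay on no annotated gene. The cells carried the markers of their label. Cd3e was at 1221 to 1812 and Cd4 at 964 to 1304 CPM (counts scaled to a common library size by the TMM method), while the B cell marker Ms4a1 had at most 4 counts. Some samples carried transcripts of other cells. Erythroid transcripts were richest in WT spleen replicates 3 and 4 and WT mLN replicate 4. Hbb-bs, a β-globin gene, ranged up to 1008 CPM in WT spleen and 443 in WT mLN, and to at most 51.0 in KO spleen and 36.8 in KO mLN. The granulocyte markers S100a8, S100a9 and Ly6g summed to 75.9 to 419.9 CPM in spleen and 16.4 to 60.5 in mLN, without overlap between the organs. The 6 monocyte and macrophage markers summed to 113 to 327.5 CPM in spleen and 49.0 to 209 in mLN, and KO spleen replicate 3 was highest. The CD8 markers Cd8a and Cd8b1 summed to 1.57 to 4.97 CPM in spleen and 7.33 to 28.4 in mLN, the NK cell markers to at most 12.6 and the dendritic cell markers to at most 36.1. In bulk RNA, fewer cells of a type and less RNA per cell cannot be told apart.

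Prkaa1 itself was lower in every KO sample than in every WT sample of its organ. In spleen it stood at 53.55, 48.6, 46.7 and 52.6 CPM in WT and between 18.5 and 21.2 in the 4 KO samples, a log2 fold change of −1.33 ± 0.08 (SE, edgeR quasi-likelihood test, adjusted p = 7.63e-05). In mLN it stood at 50.95, 60.7 and 51.2 CPM in WT and at 25.9, 32.4, 21.4 and 32.3 in KO (−0.95 ± 0.16, edgeR adjusted p = 0.0372). The mLN call was lost when any 1 of the 7 samples was left out (adjusted p from 0.0533 to 0.161). Prkaa2, the gene of the other catalytic subunit, had at most 1 count in any sample. Counts on the whole gene include reads from exons that Cre leaves in place.

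Nearly the whole pathway was transcribed in these cells, at widely different levels. To set genes beside each other, levels were divided by exon length (CPM per kb), a scale on which long annotated 3′ ends lower a gene's value. By the mean of the 4 groups, Elovl5 (50.8 CPM per kb), an elongase of polyunsaturated chains, and Acly (49.0), which makes cytosolic acetyl-CoA from citrate, were the most abundant. They were followed by Nr1h2, the gene of LXRβ (45.2), the elongase Elovl1 (41.2) and the sterol isomerase Ebp (41.1). The order at the top depended on the organ, since Acly was above Elovl5 in WT spleen (54.1 ± 3.17 and 47.0 ± 3.67, SD, n = 4) and below it in WT mLN (45.5 ± 2.01 and 50.9 ± 2.49, n = 3). Elovl1 and Ebp differed by less than their spread between samples. Srebf2, the gene of SREBP2, was at 26.4 CPM per kb and Srebf1, the gene of SREBP1, at 18.6. At the low end stood the carboxylases Acaca (0.538) and Acacb (0.1735), the Δ6 desaturase Fads2 (0.301) and the cholesterol exporter Abca1 (0.669).

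Scd1, the stearoyl-CoA desaturase of liver and fat, was the exception and was not detected above background counting. It had 0 to 5 counts per sample and did not pass edgeR's filter on low counts, so 39 of the 40 members were tested. Its paralogue Scd2 was at 37.1 to 87.5 CPM across the 15 samples. Reads that match both genes equally were left out of the counts, so the split between the paralogues is uncertain.

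**Figure D1:**
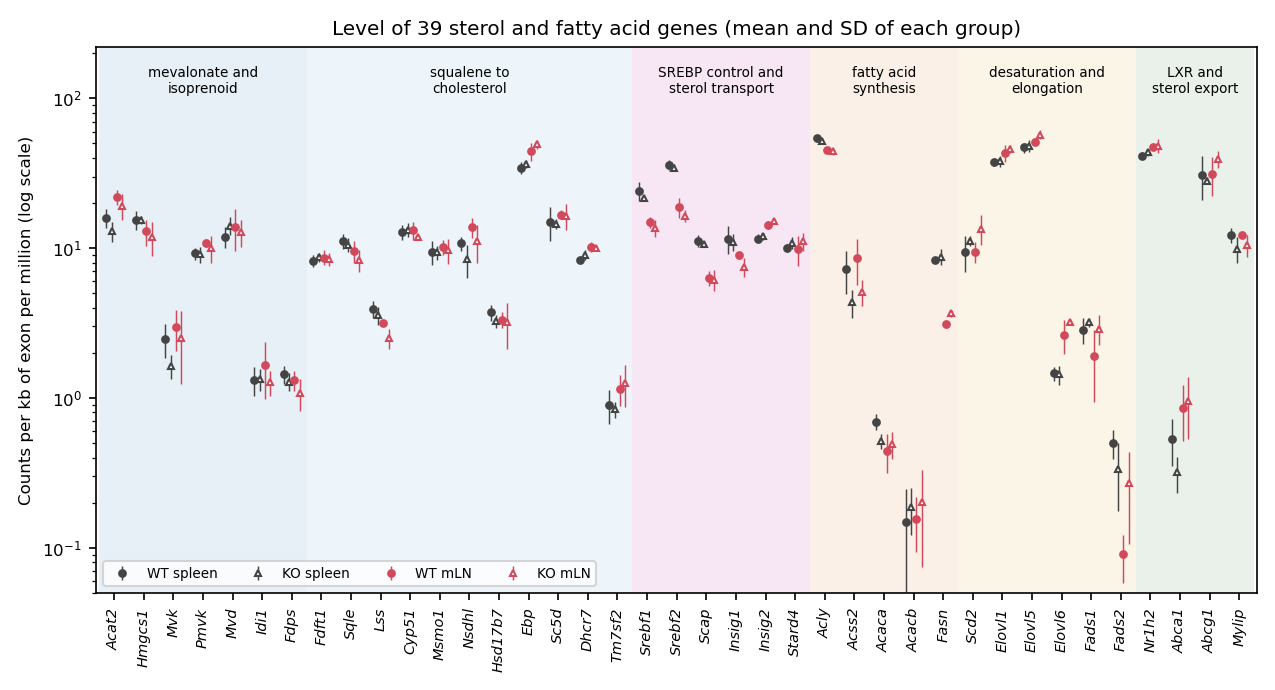
Level of 39 members on a log axis, in CPM per kb of exon, with points and bars for the mean and SD of each group (filled, WT; open, KO; grey, spleen; red, mLN). Members sit in their pathway order, and levels run from Elovl5 (50.8 on average) down to Acacb (0.1735), and Scd1, with at most 5 counts, is not drawn.

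The enzymes of the mevalonate arm were expressed unevenly. Acat2, which joins acetyl-CoA units, stood at 17.5 CPM per kb, Hmgcs1, the HMG-CoA synthase, at 13.9, and the decarboxylase Mvd at 13.2. Pmvk, the next kinase after Mvk, was at 9.795, the mevalonate kinase Mvk at 2.40, Idi1 at 1.40 and Fdps, which makes farnesyl diphosphate, at 1.28. Fdps has processed copies elsewhere in the genome, so its counts are uncertain. Between squalene and cholesterol, Ebp was highest and the reductase Tm7sf2 lowest (1.04). Sc5d (15.7), the demethylase Cyp51 (12.8), Nsdhl (11.03), the squalene epoxidase Sqle (9.89), Msmo1 (9.67), Dhcr7 (9.40) and the squalene synthase Fdft1 (8.502) formed a middle band, with Hsd17b7 (3.39) and the cyclase Lss (3.29) below it. Among the control genes, Insig2 was at 13.25 CPM per kb, the sterol carrier Stard4 at 10.45, Insig1 at 9.76 and Scap at 8.60. The acetate-activating enzyme Acss2 was at 6.33, Fasn at 5.96, Scd2 at 10.9, the Δ5 desaturase Fads1 at 2.71 and Elovl6 at 2.18. Of the LXR genes, the sterol exporter Abcg1 was at 32.5 and Mylip, a ubiquitin ligase induced by LXR, at 11.2.

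Between genotypes, most of these transcripts differed by less than 2-fold in spleen. No member passed the edgeR test there at an adjusted p under 0.05, a call that 1.30% of the 14254 genes tested received. At an unadjusted p under 0.05 there were 4 of 39 members (Acss2, Acaca, Mvk and Abca1), all lower in KO, where 20.5% of all genes lay. DESeq2 called 1 member, Acss2, where it called 5.89% of the genes to which it gave an adjusted p. The median log2 fold change of the members was −0.04, beside −0.0041 over all genes, and 24 of the 39 lay below 0. For 34 of the 39, the difference plus and minus 2 SE stayed inside a 2-fold change in either direction, with Mvk, Acss2, Acacb, Fads2 and Abca1 as the exceptions.

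In mLN the outcome of the tests was similar. No member passed the edgeR test, against 0.641% of the 14359 genes tested. Only Acss2, lower in KO, and Scd2, higher in KO, reached an unadjusted p under 0.05, which 15.7% of all genes did, and DESeq2 again called 1 member, Acss2, where it called 4.37% of the genes to which it gave an adjusted p. The median of the members was −0.04, beside −0.0038 over all genes, with 23 of the 39 below 0. The range of 2 SE around the difference stayed inside a 2-fold change for 33 of the 39, the others being Mvk, Idi1, Acss2, Acacb, Fads1 and Fads2.

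**Figure D2:**
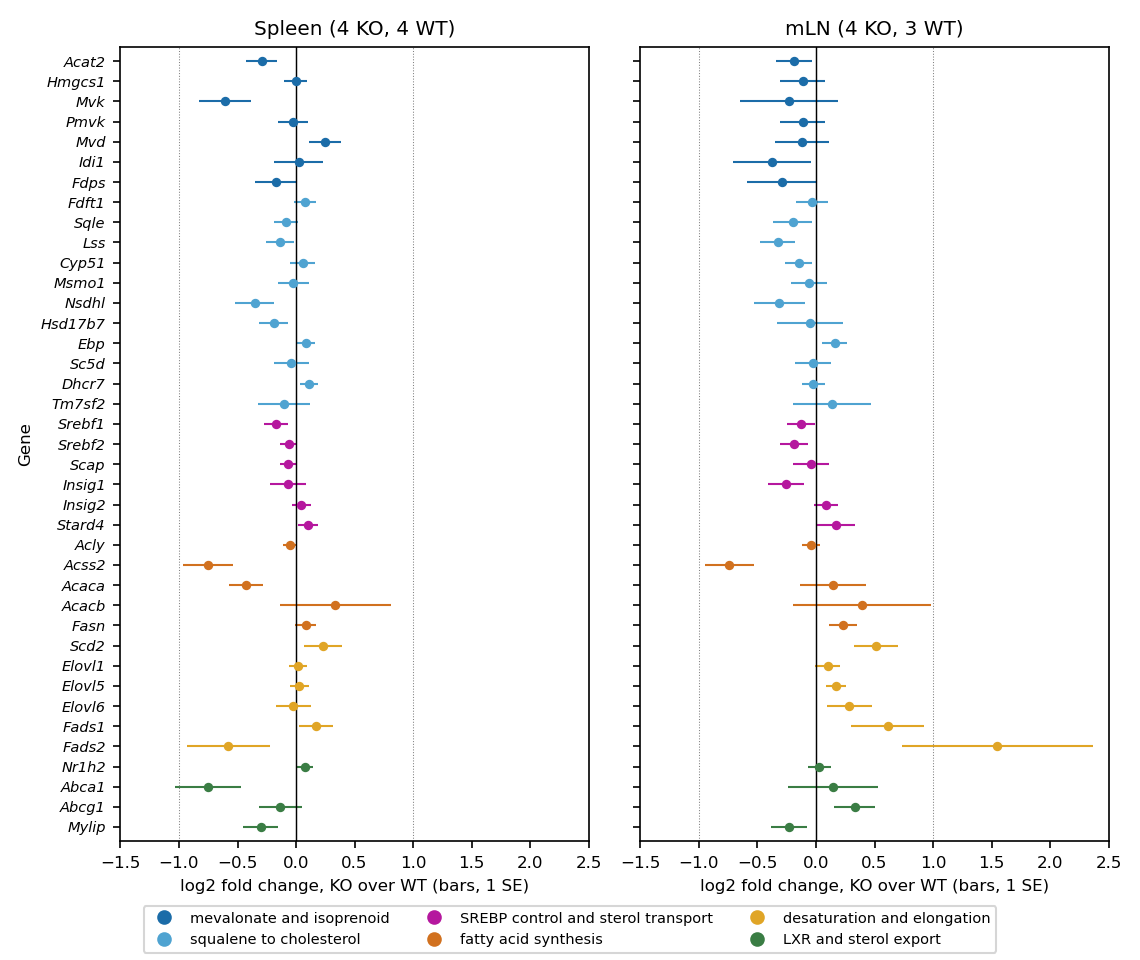
Log2 fold change of KO over WT for 39 members in spleen and in mLN, with bars of 1 SE and dotted lines at a 2-fold change. No member was called by edgeR in either organ (DESeq2 called Acss2 in both), and Acss2 lies at −0.75 in spleen and −0.74 in mLN.

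Acss2, which makes acetyl-CoA from acetate for synthesis and for histone acetylation, had the smallest p of the members in both organs. In spleen it stood at 59.1, 71.3, 57.5 and 109 CPM in WT and at 47.4, 56.1, 38.0 and 34.9 in KO. In mLN the WT samples stood at 66.6, 73.5 and 121 CPM, and the KO samples at 58.8, 63.3, 43.2 and 43.2. The genotypes did not overlap in either organ, but WT replicate 4 stood apart from the other WT samples in both. Over all genes the spleen and mLN samples of WT replicate 4 deviated together (correlation 0.291). The organs are therefore not counted as independent results for this gene. The log2 fold change was −0.75 ± 0.21 in spleen (SE, edgeR adjusted p = 0.0994) and −0.74 ± 0.21 in mLN (edgeR adjusted p = 0.138). Leaving out WT replicate 4 gave −0.50 (adjusted p = 0.155) in spleen and −0.43 (adjusted p = 0.461) in mLN, the latter a change of over 1.5 times. Both of those samples were among the 3 richest in erythroid transcripts, and without WT spleen replicates 3 and 4 the spleen value was −0.56 (adjusted p = 0.179). Whether the erythroid transcripts took part in the difference was not tested. The exons of Acss2 share 9.12% of their bases with genes on the opposite strand (Gss, Ggt7 and Acss2os), and the strand of the counts is not given in the sources used here.

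The other members nearest to a call in spleen were lower in KO. Acaca, the main acetyl-CoA carboxylase and a direct protein target of AMPK, was at 11.02, 10.3, 13.0 and 13.05 CPM in WT and at 9.90, 8.38, 9.48 and 7.597 in KO. The groups did not overlap (−0.43 ± 0.14, edgeR adjusted p = 0.139). Acss2 and Acaca were the 2 members of 39 that were lower in KO without overlap in spleen, where 6.13% of all genes were, and no member was higher without overlap, where 5.90% of genes were. Mvk was at 4.89 to 8.86 CPM in WT and 3.53 to 5.41 in KO, with overlap (−0.61 ± 0.22, edgeR adjusted p = 0.161). On the higher side were Mvd (0.24 ± 0.14, edgeR adjusted p = 0.346), Scd2 (0.23 ± 0.16, edgeR adjusted p = 0.462) and Dhcr7 (0.11 ± 0.08, edgeR adjusted p = 0.457), all with overlapping groups. Leaving out 1 sample moved these by over 1.5 times, to between 0.16 and 0.34 for Mvd, 0.10 and 0.41 for Scd2, and 0.06 and 0.15 for Dhcr7. Without WT spleen replicates 3 and 4, Mvk moved to −0.33, Acaca to −0.27 and Abca1 from −0.75 (± 0.28, edgeR adjusted p = 0.170) to −0.36, changes of over 1.5 times each.

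In mLN, Lss, the lanosterol-forming cyclase, was at 35.5, 32.5 and 34.1 CPM in WT and at 31.1, 24.2, 30.2 and 23.1 in KO (−0.33 ± 0.15, edgeR adjusted p = 0.327). Insig1, a target of SREBP as well as its brake, was at 25.8 to 28.6 in WT and 20.1 to 26.5 in KO, with overlap (−0.26 ± 0.15, edgeR adjusted p = 0.466). Fasn was higher in every KO sample (38.4, 38.8, 40.25 and 43.0 CPM) than in every WT sample (32.1, 35.8 and 34.4), though the difference was small (0.23 ± 0.12, edgeR adjusted p = 0.386). Acss2 and Lss were lower without overlap, as were 7.37% of all genes, and Fasn was the only member higher without overlap, as were 6.62% of all genes. Scd2 was at 43.45, 60.1 and 51.8 CPM in WT and at 51.3, 87.5, 85.1 and 71.65 in KO, with overlap (0.51 ± 0.19, edgeR adjusted p = 0.226). Fads1 was at 14.4, 6.90 and 6.11 in WT and at 12.9, 10.51, 14.5 and 18.05 in KO, also with overlap (0.61 ± 0.31, edgeR adjusted p = 0.386). The Fads1 value was 1.09 without WT mLN replicate 1 and 0.39 without WT mLN replicate 4.

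By role, the differences were also small. In mLN, where 50.45% of all genes lay below 0, so did all 7 mevalonate genes (median log2 fold change −0.19), 9 of the 11 genes from squalene to cholesterol (−0.05), 4 of the 6 control genes (−0.08), 2 of the 5 fatty acid synthesis genes (0.15), 1 of the 4 LXR genes (0.09) and none of the 6 desaturation and elongation genes tested (0.40). These counts of signs were not tested, and edgeR called none of the genes. In spleen, 50.74% of all genes lay below 0. So did 5 of the 7 mevalonate genes (median −0.02), 7 of the 11 later sterol genes (−0.04) and 4 of the 6 control genes (−0.07). Of the other roles, 3 of the 5 fatty acid synthesis genes (−0.05), 3 of the 4 LXR genes (−0.22) and 2 of the 6 desaturation and elongation genes (0.02) lay below 0 there. The summed level of the 18 enzymes from Acat2 to cholesterol was 674 ± 49.6 CPM in WT spleen (SD, n = 4), 661.5 ± 47.35 in KO spleen (n = 4), 727.5 ± 58.65 in WT mLN (n = 3) and 688 ± 76.1 in KO mLN (n = 4). The summed desaturation and elongation genes were at 356.5 to 388 CPM in WT mLN and 427 to 445 in KO mLN, which did not overlap, and at 316 to 377 and 339 to 397 in WT and KO spleen, which did. Sums of granulocyte and of CD8 markers also separated the mLN groups. The sums of B cell, monocyte and macrophage, dendritic cell, NK cell, erythroid and stromal markers overlapped there. Granulocyte markers summed to 44.3 to 60.5 CPM in WT and 16.4 to 37.2 in KO. That separation came from S100a8 (33.3 to 46.1 CPM in WT, 11.3 to 26.6 in KO). S100a9 overlapped (8.18 to 13.7 in WT, 4.06 to 10.6 in KO), as did Ly6g, and edgeR called neither S100a8 nor S100a9 between genotypes. The CD8 markers summed to 7.33 to 11.5 CPM in WT and 19.6 to 28.4 in KO. The CD8 separation came from Cd8a (0.305 to 8.475 CPM in WT, 16.5 to 23.2 in KO). Cd8b1 overlapped (3.055 to 7.02 in WT, 1.49 to 7.01 in KO), and edgeR called neither gene between genotypes. The 11 proliferation genes used as a check (Top2a, Rrm2, Tyms and others) summed to 733 to 926 CPM in WT mLN and 951 to 1243 in KO mLN. EdgeR called none of the 11, 6 had an unadjusted p under 0.05 (15.7% of all genes), and DESeq2 called 4 (4.37% of all genes), all higher in KO. The part of these genes and markers in the values of the lipid genes was not tested.

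Some samples ranked lowest or highest of their group for many of the sterol enzymes. WT replicate 2 was lowest of its group for 8 of the 18 sterol enzymes in spleen and for 13 of 18 in mLN. KO replicate 1 was highest of its group for 13 of 18 in spleen and for 11 of 18 in mLN. KO mLN replicate 2 was lowest for 11 of 18. For Hmgcs1 this meant 79.1, 57.1, 70.7 and 76.9 CPM in WT spleen, 76.8, 70.9, 68.9 and 66.75 in KO spleen, 69.6, 46.4 and 62.2 in WT mLN, and 75.4, 45.8, 45.5 and 52.6 in KO mLN. All 4 groups overlapped for this gene. The deviations were small. Over the 18 enzymes, the median log2 deviation from the group mean was −0.15 in spleen and −0.17 in mLN for WT replicate 2. It was 0.15 and 0.21 for KO replicate 1, and −0.23 for KO mLN replicate 2. Whether these samples ranked alike over all genes was not tested.

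**Figure D3:**
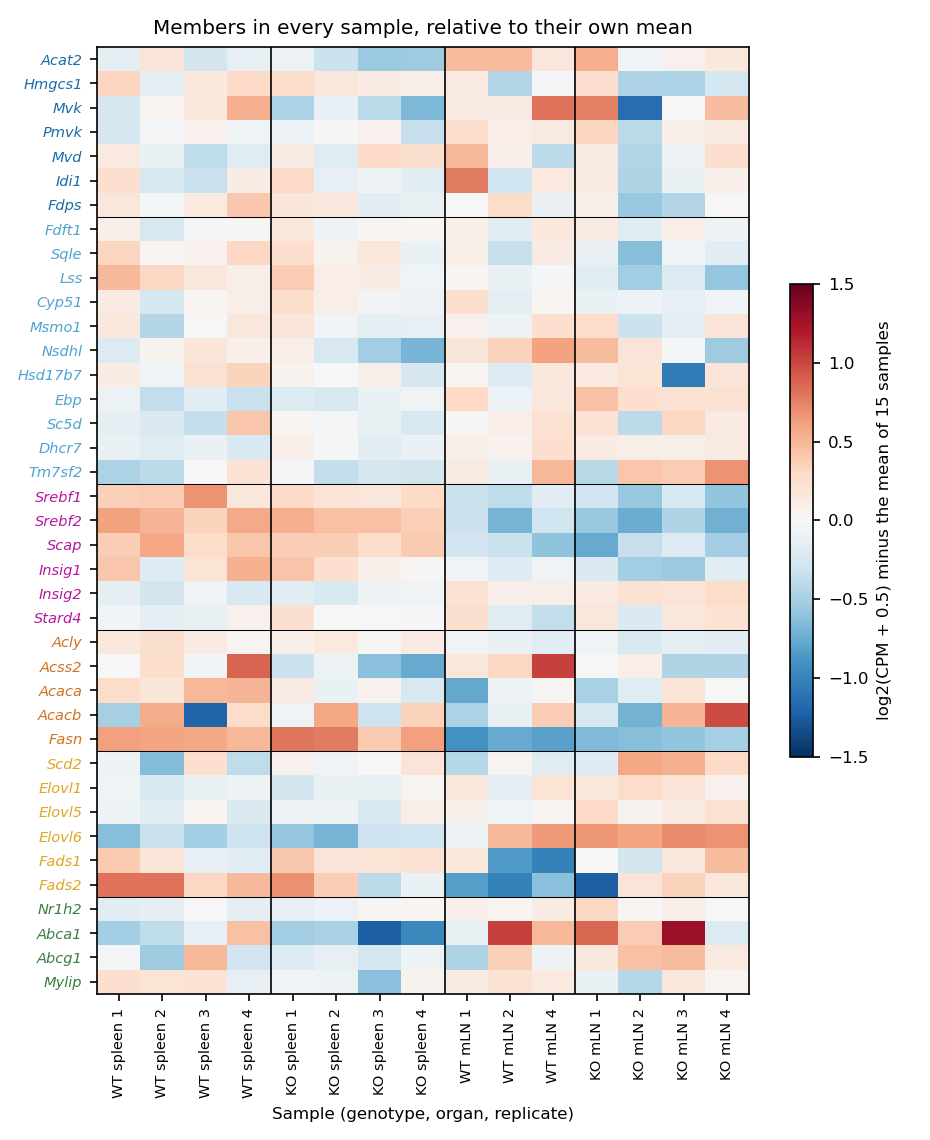
Log2(CPM + 0.5) of 39 members in each of the 15 samples, relative to the mean of that gene over all samples (red, higher; blue, lower; label colours and lines mark the roles). Srebf1, Srebf2, Scap and Fasn divide by organ, while the sterol enzymes vary between samples of the same group, for example in WT replicate 2 and KO mLN replicate 2.

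More members were called between organs than between genotypes, among them the SREBP genes themselves. In WT, 6 of 39 members were called lower in mLN than in spleen (Fasn, Srebf2, Scap, Srebf1, Acly and Fads2), beside 10.8% of the 14515 genes tested, and 5 were called higher (Elovl6, Acat2, Ebp, Dhcr7 and Insig2), beside 9.70%. In KO, 7 were called lower (Fasn, Srebf2, Scap, Srebf1, Acly, Insig1 and Lss), beside 13.9% of 14240 genes, and 7 higher (Elovl6, Abca1, Abcg1, Ebp, Acat2, Insig2 and Elovl1), beside 11.4%. Each genotype's comparison used its own samples. Both genotypes gave 5 members lower in mLN, where 8.20% of the 13945 genes tested in both did, and 4 higher, where 6.59% did. The median over all members was near 0 in both (WT, 0.05 beside 0.00 over all genes, and KO, 0.03 beside 0.01), since members moved in opposite directions. As a share the members called are not far from all genes, and the description below is of which ones they were.

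The genes of both SREBP factors and of their escort were lower in mLN. Srebf2, the gene of the factor that favours cholesterol synthesis, was at 275, 259, 229 and 269.9 CPM in WT spleen against 145, 112 and 148 in WT mLN, and at 265, 245.5, 246 and 232 in KO spleen against 123, 108, 133 and 110.1 in KO mLN. The organs were far apart in both genotypes, with log2 fold changes of −0.95 ± 0.12 in WT (SE, edgeR adjusted p = 0.000875) and −1.08 ± 0.08 in KO (edgeR adjusted p = 6.72e-06). Srebf1, which favours fatty acid synthesis, was at 115 to 164 CPM in WT spleen, 78.7 to 91.8 in WT mLN, 115.5 to 127 in KO spleen and 67.7 to 87.8 in KO mLN. It fell by 0.71 ± 0.12 on the log2 scale in WT (edgeR adjusted p = 0.00474) and by 0.67 ± 0.10 in KO (edgeR adjusted p = 0.000526). Scap was at 75.7 to 93.9 CPM in WT spleen and 40.9 to 51.2 in WT mLN, and at 75.55 to 81.85 in KO spleen and 36.7 to 54.5 in KO mLN. It fell by 0.83 ± 0.11 in WT (edgeR adjusted p = 0.00131) and by 0.81 ± 0.12 in KO (edgeR adjusted p = 0.000462). The summed level of the 6 control genes was 600.5 to 626 CPM in WT spleen and 365 to 428 in WT mLN. For Srebf2, Srebf1 and Scap the organs did not overlap in either genotype. Scap shares 13.2% of its exon bases with a gene on the opposite strand (5830462I19Rik).

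The INSIG genes went in opposite directions. Insig2, the form that does not depend on SREBP, was at 37.4 to 43.7 CPM in WT spleen, 48.0 to 52.8 in WT mLN, 38.6 to 43.8 in KO spleen and 49.8 to 55.0 in KO mLN. It was called higher in mLN in WT (0.29 ± 0.09, edgeR adjusted p = 0.0498) and in KO (0.32 ± 0.08, edgeR adjusted p = 0.0162), and the WT call was lost when any 1 of the 7 samples was left out. Insig1, the form that SREBP induces, was called lower in mLN in KO (−0.58 ± 0.14, edgeR adjusted p = 0.00919), with 29.9 to 40.0 CPM in spleen and 20.1 to 26.5 in mLN. In WT its organs overlapped (25.95 to 43.05 in spleen, 25.8 to 28.6 in mLN, −0.38 ± 0.17, edgeR adjusted p = 0.141). Stard4, which moves cholesterol between membranes, was not called in either genotype.

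Fasn, the multifunctional synthase that builds palmitate, had the smallest p among the members in WT and was next to Srebf2 in KO. It stood at 93.8, 91.7, 90.95 and 86.5 CPM in WT spleen and at 32.1, 35.8 and 34.4 in WT mLN. In KO it stood at 106.5, 105, 80.0 and 93.6 in spleen and at 38.4, 38.8, 40.25 and 43.0 in mLN. Each mLN sample lay far below each spleen sample, with a log2 fold change of −1.42 ± 0.08 in WT (edgeR adjusted p = 9.11e-05) and −1.28 ± 0.10 in KO (edgeR adjusted p = 9.76e-06). Acly, upstream of acetyl-CoA carboxylase, fell by 0.26 ± 0.08 in WT (edgeR adjusted p = 0.0454) and by 0.26 ± 0.06 in KO (edgeR adjusted p = 0.0101), with 266 to 306.5 CPM in WT spleen and 229 to 250.4 in WT mLN. The carboxylases Acaca and Acacb and the synthetase Acss2 were not called by edgeR. Acaca in WT was lower in mLN without overlap (10.3 to 13.05 in spleen, 5.095 to 9.16 in mLN, −0.65 ± 0.23, edgeR adjusted p = 0.0785), and DESeq2 called it there (adjusted p = 0.0464).

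**Figure D4:**
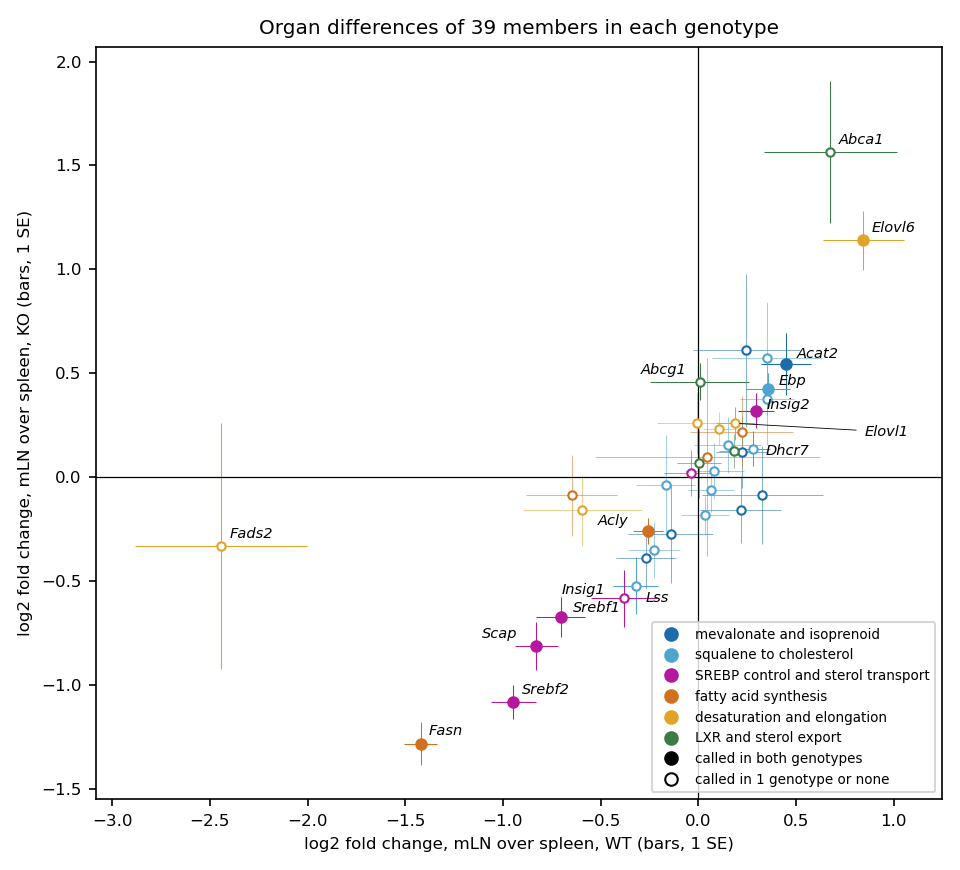
Log2 fold change of mLN over spleen in WT (x axis) and in KO (y axis) for 39 members, with bars of 1 SE, filled where called in both genotypes, and names on members called in at least 1. Srebf2, Srebf1, Scap, Fasn and Acly lie in the lower left, and Elovl6, Acat2, Ebp and Insig2 in the upper right. The position of Fads2, which rests on 19 counts or fewer per sample, depends on the small constant that the fit adds to counts.

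Of the genes of chain modification, Elovl6, which extends palmitate to stearate, was the one called in both genotypes, and in the opposite sense to Fasn. It was at 8.11, 10.1, 8.90 and 10.3 CPM in WT spleen and 12.1, 18.3 and 20.35 in WT mLN, and at 8.45, 7.77, 10.3 and 10.4 in KO spleen and 20.5, 19.7, 21.4 and 20.9 in KO mLN. The organs did not overlap, with log2 fold changes of 0.84 ± 0.21 in WT (edgeR adjusted p = 0.0199) and 1.14 ± 0.14 in KO (edgeR adjusted p = 0.000197). Elovl1, which makes very long saturated chains, was called higher in KO mLN (0.26 ± 0.08, edgeR adjusted p = 0.0358) and not called in WT (0.19 ± 0.10, edgeR adjusted p = 0.212). Fads2 had 13 to 19 counts per sample in WT spleen and 2 to 4 in WT mLN, and was called lower there (edgeR adjusted p = 0.00546). In KO it had 6 to 17 counts in spleen and 1, 12, 13 and 12 in mLN, and was not called (edgeR adjusted p = 0.725).

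The sterol enzymes differed in both directions between organs. Acat2 was higher in mLN, at 35.1 to 48.9 CPM in WT spleen and 48.0 to 59.6 in WT mLN, which overlapped (0.45 ± 0.13, edgeR adjusted p = 0.0384), and at 28.8 to 40.1 in KO spleen and 40.85 to 62.3 in KO mLN, which did not (0.54 ± 0.15, edgeR adjusted p = 0.0211). Ebp was at 71.95 to 87.9 CPM in WT spleen and 87.6 to 115 in WT mLN, which overlapped (0.36 ± 0.11, edgeR adjusted p = 0.0497), and at 79.0 to 89.45 in KO spleen and 109.5 to 126 in KO mLN, which did not (0.42 ± 0.08, edgeR adjusted p = 0.00237). Dhcr7, the last enzyme of one branch, was called higher in WT mLN (0.28 ± 0.09, edgeR adjusted p = 0.0497) and Lss lower in KO mLN (−0.52 ± 0.14, edgeR adjusted p = 0.0174). The remaining 14 of the 18 sterol enzymes were called by edgeR in neither genotype. With the replicate number as a block, which pairs the WT samples, edgeR called 30.0% of all genes in WT in either direction. Under this setting Hmgcs1 (edgeR adjusted p = 0.0333), Sqle (0.0400) and Lss (0.0409) were also called lower in WT mLN and Nsdhl (0.0213) higher. DESeq2 called Hmgcs1 lower in KO mLN (adjusted p = 0.0480), where it called 2140 of 14240 genes lower. By sign, 8 of the 11 genes from squalene to cholesterol lay above 0 in WT and 6 of 11 in KO. Of the LXR genes, Abca1 (1.56 ± 0.34, edgeR adjusted p = 0.00624) and Abcg1 (0.46 ± 0.09, edgeR adjusted p = 0.00344) were called higher in KO mLN, at 2.275 to 4.10 and 5.12 to 15.4 CPM for Abca1 and at 193 to 219 and 255.5 to 322 for Abcg1 in spleen and mLN. In WT neither was called, and Abcg1 ranged from 159.5 to 327 CPM within spleen alone.

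**Figure D5:**
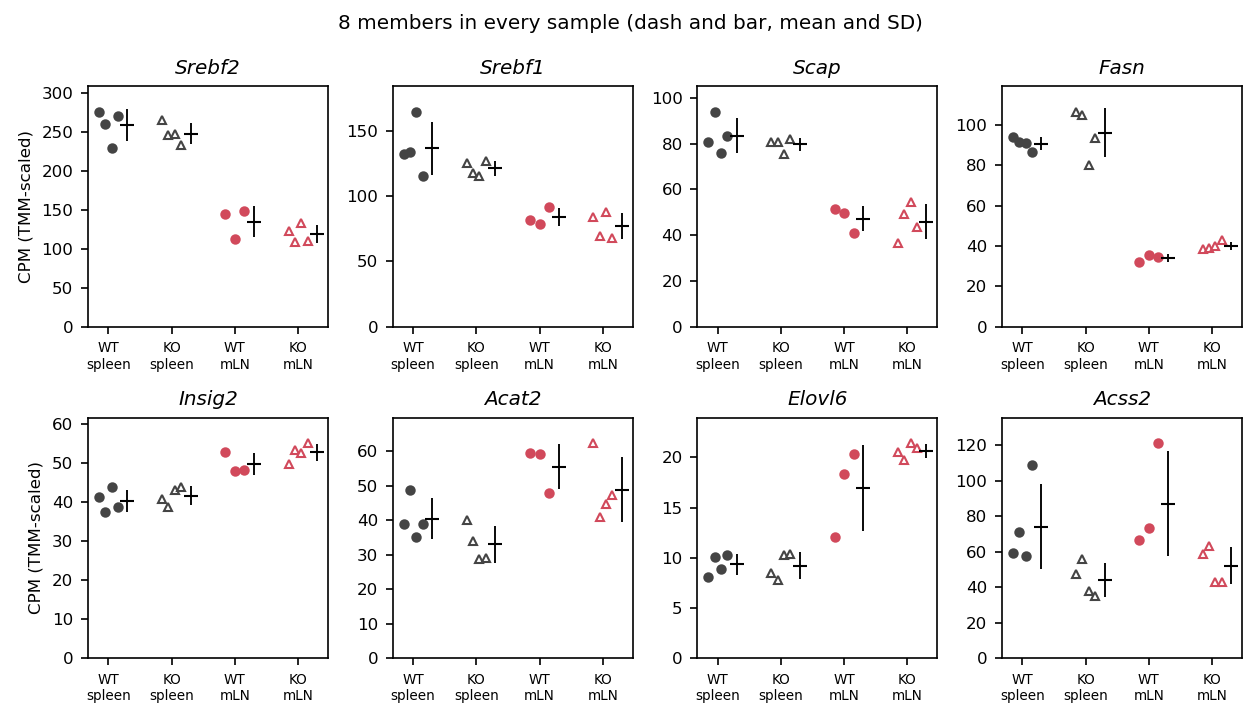
TMM-scaled CPM of 8 members in every sample (filled, WT; open, KO), with a dash and bar for the mean and SD of each group (n = 4, and 3 in WT mLN). Srebf2, Srebf1, Scap and Fasn are lower and Insig2, Acat2 and Elovl6 higher in mLN, and for Acss2 WT replicate 4 of each organ stands above the rest.

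The organ calls were not equally firm. Of the alternative settings below, the share of all genes called is given only for the WT replicate block. Whether the changes in number were particular to the members was not tested. In WT, RLE size factors gave 2 higher and 6 lower calls and total counts without a TMM factor 1 higher and 6 lower, so the higher calls there depended on the scaling. Leaving out 1 sample left 5 (WT spleen replicate 1), 6 (WT spleen replicate 3, WT mLN replicates 2 and 4), 7 (WT mLN replicate 1) or 8 (WT spleen replicates 2 and 4) members called, against 11 with all samples. In WT, Fasn, Srebf2, Scap, Srebf1 and Fads2 were called in 7 of the 7 fits that left out 1 sample, Elovl6 in 4, Acat2 in 2, Acly and Ebp in 1, and Insig2 and Dhcr7 in none. In KO, Fasn, Srebf2, Scap, Srebf1, Acly, Insig1, Elovl6, Ebp, Abca1 and Abcg1 were called in 8 of 8, Lss in 7, Acat2 and Insig2 in 6 and Elovl1 in 2. In WT the replicate numbers paired the organs, and with the number as a block 17 members were called, 7 higher and 10 lower, where 30.0% of all genes were called. The granulocyte markers S100a8 and S100a9 were called lower in mLN in both genotypes, and Ly6g was not tested. Of the 6 monocyte and macrophage markers, 4 (Csf1r, Lyz2, Adgre1 and Fcgr1) were called lower in KO mLN, beside 13.9% of all genes. Cd68 was not called in KO and Itgam was not tested there. Called higher in KO mLN than in KO spleen were Cd8a of the CD8 list, Siglech of the dendritic cell list and Pecam1 of the stromal list. So were 5 of the 11 proliferation genes, beside 11.4% of all genes. Pecam1 was at 64.8 to 132 CPM over all samples, where Cdh5 was at most 2.27 and Col1a1 at most 2.69. Which cells these transcripts came from was not tested. Other genes of the same marker lists did not share these calls. The dendritic cell marker Xcr1 was called lower (−0.54, edgeR adjusted p = 0.0411). Cd8b1, the dendritic cell marker Zbtb46 and the stromal markers Col1a1 and Cdh5 were not called. The part of these markers in the organ differences was not tested. Without the 3 samples richest in erythroid transcripts, 5 members were still called in WT, with Fasn at −1.47 and Srebf2 at −1.08.

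Of 28 genes of the same routes outside the list, 27 were tested. No gene of this set was called between genotypes by edgeR in either organ, with 6 in spleen and 5 in mLN at an unadjusted p under 0.05 (20.5% and 15.7% of all genes), while DESeq2 called 1 in spleen and 2 in mLN (5.89% and 4.37%). Between organs, 3 of the 27 were called higher and 4 lower in WT mLN, beside 9.70% and 10.8% of all genes, and 3 higher and 3 lower in KO mLN, beside 11.4% and 13.9%. Of those called in both genotypes, Erlin2, which takes part in the degradation of sterol-regulated proteins, fell by 0.48 ± 0.14 in WT (edgeR adjusted p = 0.0396) and by 0.55 ± 0.12 in KO (edgeR adjusted p = 0.00704). Npc2, which hands cholesterol out of lysosomes, was higher by 0.41 ± 0.08 (edgeR adjusted p = 0.00991) and 0.31 ± 0.09 (edgeR adjusted p = 0.0284).

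Whether the effect of genotype differed between organs was tested over all 15 samples as the genotype by organ interaction. No member was called by edgeR, and none by DESeq2, where 0% of the 15438 genes tested were called by edgeR. At an unadjusted p under 0.05 there was 1 member, Fads2, beside 4.22% of all genes, and its values rest on the few counts given above. The median of the members was 0.04, beside −0.0053 over all genes. The interaction is the least precise of the 5 comparisons, with a median SE of 0.22 on the log2 scale, beside 0.13 to 0.16 in the others. The members called in a single genotype (Fads2 and Dhcr7 in WT, Insig1, Lss, Elovl1, Abca1 and Abcg1 in KO) were therefore not shown to differ between genotypes.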

How the data were processed

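RNA from CD4+ T cells was sequenced in 15 samples. The authors deposited 1 table of raw counts per gene for each sample, made with STAR 2.6.1a on GRCm38, with reads that aligned to several places left out. The submitters' processing notes also name bcl2fastq 2.19.1.403, RSEM and DESeq2 1.22.2, and the strand setting of the counts is not given in the sources used here. Rows that count reads on no gene were left out of library sizes and tests.

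The 40 members, their roles and the other lists were chosen with earlier results of these data known. Gene names and exon lengths came from GENCODE, which named 55240 of the 55421 genes counted. Counts were tested with edgeR 4.0.16 (quasi-likelihood test, TMM scaling, edgeR's own filter on low counts) in R 4.3.3, separately for each pair of groups and over all 15 samples for the interaction, with Benjamini-Hochberg adjustment over all genes tested and a limit of 0.05. DESeq2 1.42.0 was the alternative test. The procedure was tested on simulated data with planted changes of 2-fold or more. Every simulated gene had the same spread, which was below that estimated in each comparison. The simulation therefore does not show how often smaller differences would be called in these samples. Levels are TMM-scaled CPM, divided by exon length where genes are set beside each other. Promoter windows were RefSeq's, on GRCm38.p6.

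Full statistics were given for the 3 members on each side with the smallest p between genotypes in each organ, and for the 8 members called with the same sign between organs in both genotypes that had the smallest larger p. Other members with statistics were chosen after their values were seen. Other alternatives changed the scaling (RLE size factors, or totals without a TMM factor), the filter (none, or 10 counts or more in each library), the fit (1 model of the 15 samples, or a block for the replicate number) or the call (a fold minimum), or dropped each sample in turn. Leaving out the 3 samples richest in erythroid transcripts was chosen after seeing the data. Same-numbered WT spleen and mLN samples deviated together (correlation over genes 0.243 to 0.291, against −0.198 to 0.032 for other pairs), so the numbers pair those samples. For the KO organs the ranges overlapped (0.026 to 0.259, against −0.171 to 0.103 for other pairs), so the measure did not decide whether the numbers pair them. The numbers did not pair the genotypes by this measure (−0.210 to 0.146 in spleen, −0.053 to 0.003 in mLN). Some genes of the marker and pathway lists are not reported here by name.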

Additional observations from a re-analysis of the deposited data

Results flagged for a closer look

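In groups of 4 samples, 7 of the 117 combinations of member and group held a sample far from the others by Dixon's test, where chance alone marks about 1 in 20, or 5.85 of 117. Hsd17b7, a ketoreductase of sterol synthesis, was at 7.93 CPM in KO mLN replicate 3 against 18.7 to 19.6 in the other KO mLN samples. Ebp was at 126 CPM in KO mLN replicate 1 against 109.5 to 111, and Stard4 was at 49.8 CPM in KO mLN replicate 2 against 65.1 to 67.6. In KO spleen, replicate 1 was highest for Stard4 (68.55 CPM against 56.9 to 58.0) and for Fads1 (17.1 against 14.7 to 14.9). In WT spleen, Nr1h2 was at 150.1 CPM in replicate 3 against 134.0 to 135.6, and Mylip was at 32.5 CPM in replicate 4 against 41.25 to 42.5.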

How the results depend on the processing

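Between genotypes, edgeR called no member in either organ, and this held under RLE size factors, total counts only, a filter of 10 counts in each library, 1 model of the 15 samples, the replicate block (0 in both organs) and each sample left out (0 to 0). DESeq2 called 1 member in spleen and 1 in mLN, and edgeR with no filter on low counts called 1 and 2. Over all genes DESeq2 called 823 against 185 by edgeR in spleen, and 590 against 92 in mLN. The members' median in spleen was 0.0481 without the 3 samples richest in erythroid transcripts, and −0.08 to 0.03 with 1 sample left out (−0.07 to 0.03 in mLN). Between organs in WT, 11 members were called, with 7 under total counts only, 7 with at least 10 counts in every sample, 2 with a fold minimum, 5 without the erythroid-rich samples and 17 with the replicate block, while leaving out 1 sample gave 5 to 8 and a median of −0.0069 to 0.1175. In KO, 14 were called, with 4 under the fold minimum, 18 with the replicate block and 11 to 16 with 1 sample left out. The interaction called 0 under every alternative run. For most of these settings the share of all genes called is not given here. The counts therefore do not show whether the members changed more than other genes. Of the named members' values, 384 kept direction and side of the limit, 31 lost the call, 5 gained it and none changed direction with a call. The cause of these shifts was not tested. Members with few counts, such as Fads2 and Acacb, are limited by depth.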
